A study of Mus musculus with 18 samples.

Results

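This section describes WT monocyte cultures between day 3 and day 6 of GM-CSF, with more medium and cytokine added to the cultures on day 3. The genes were chosen by 1 rule, a mean RPKM (reads on a gene scaled by its length and by the mapped reads of the library) above 2 over the 3 libraries of day 3 or over the 3 libraries of day 6, which 9613 of the 20298 genes listed met. The 6 libraries of these groups were set beside the other 12 of the 18 libraries only where stated. WT cells came from C57BL/6J mice without a mutation in the STAT5 genes, and their Ly6C+ CCR2+ bone marrow monocytes were enriched by negative selection, so that other marrow cells can remain. Day 0 cells (3 libraries) received no cytokine, whereas day 3 and day 6 cells (3 libraries each) received 20 ng/mL GM-CSF, in 3 independent experiments. The DKI cultures had the same days and dose, and carried knock-in mutations in the N-domains of both Stat5a and Stat5b that leave STAT5 dimers but no tetramers. The age of the mice was not given in the sources used here.

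GM-CSF binds a receptor made of CSF2RA and a shared beta chain, which activates JAK2 and STAT5. Monocytes cultured with it become a mixture of dendritic-like cells (moDCs) and macrophages, together called MDCs. When moDCs mature they place the chemokine receptor CCR7 and co-stimulatory proteins on their surface, and they can then travel to lymph nodes and activate T cells.

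The RPKM values of the 6 libraries correspond to an estimated 30.3 M to 42.9 M reads each, and 9213 to 9517 genes per library were above 2 RPKM. The sample labels name liver as the tissue, but 10 of 12 hepatocyte genes, Alb among them, were at 0 in every day 3 and day 6 WT library and the list summed to 0.184 to 0.649 RPKM. The dendritic cell integrin Itgax was at 411, 630 and 718 RPKM on day 3 and 466, 553 and 498 on day 6 in replicates 1, 2 and 3, whereas Ly6c2, which marks classical monocytes, went from 953 to 1762 RPKM on day 0 to 11.2 to 39.8 on day 3 and 8.66 to 13.1 on day 6. Most of the difference in Ly6c2 thus lay before day 3. In the 500 most variable genes, libraries of different days with the same number lay at Euclidean distances of 26.6, 26.4 and 39.1 for replicates 1, 2 and 3, against 28.1 to 38.7 between libraries of the same day and 27.6 to 41.9 between libraries of different days and numbers. Replicates 1 and 2 were thus closest to their own number, and replicate 3 was not.

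Most of the expression change preceded this interval. With limma, 2013 genes (20.3%) were higher and 2270 (22.8%) lower on day 3 than on day 0, at an adjusted p under 0.05 and a change above 1.5-fold, of 9938 genes tested. Between day 3 and day 6 no gene passed the same limits (0%), and the smallest adjusted p was 0.120, for Ceacam15. Without adjustment, 722 genes had p under 0.05, of which 420 were higher and 302 lower on day 6. The median size of the log2 difference was 0.155, against 0.568 between day 0 and day 3, and the median half-width of its 95% interval was 0.405. Blocking on the replicate number also called no gene (0%), with 1221 genes at an unadjusted p under 0.05, 595 higher and 626 lower, and a smallest adjusted p of 0.203. In what follows "higher" and "lower" therefore describe the levels of 3 libraries against 3 and are not calls, unless a fit is named. The 95% intervals and adjusted p values given for single genes come from fits without the block, which leave the replicate numbers out.

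Although no call was made, the largest differences were mostly towards day 6. The 3 day 6 libraries were all above the 3 day 3 libraries in 585 genes (6.09%) and all below in 793 (8.25%). With a change above 1.5-fold as well, 239 genes (2.49%) were higher and 45 (0.468%) were lower. Over all 9613 genes the median log2 difference was -0.03, and 56.4% of the genes had a negative one, so many small negative differences stood against fewer, larger positive ones. Of the 239 genes 62 met the limit on mean RPKM through day 6 only, and of the 45 genes 3 through day 3 only. Of the 239 genes, 150 had a lower mean on day 0 than on either later day, 47 lay between and 42 were higher on day 0 than on both. These positions were not counted over all genes tested, so they cannot be read as a trait of the set. The genes named from these sets below were chosen after their values were seen.

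**Figure D1:**
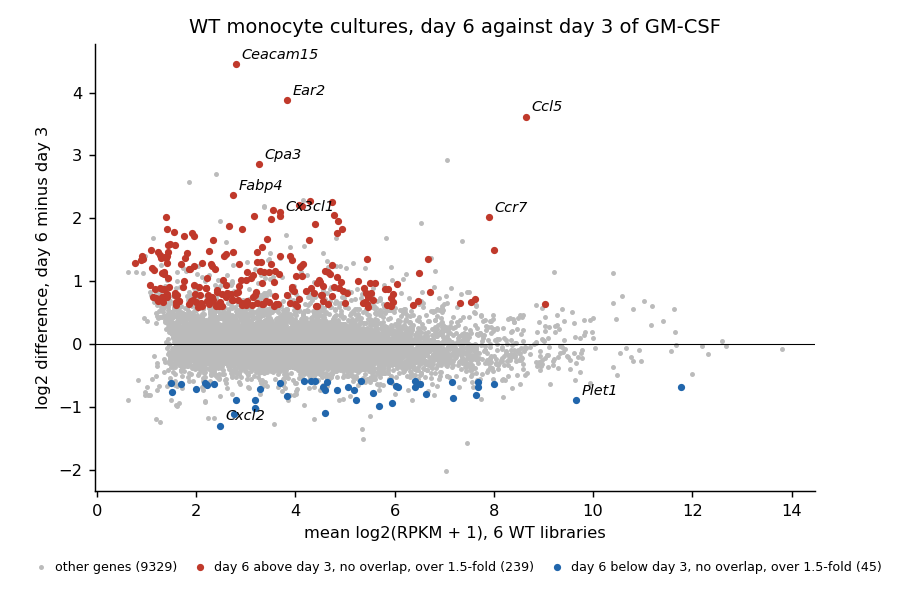
Log2 difference (day 6 minus day 3, log2(RPKM + 1) scale) against the mean level over the 6 WT libraries, 1 point per gene tested. The 239 genes in red and 45 in blue had days that did not overlap and a change above 1.5-fold, and all other genes tested are grey.

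Ceacam15, of the carcinoembryonic antigen family of cell adhesion proteins, had the largest log2 difference of the genes tested. It was at 0 in the 3 day 0 libraries, at 0.550, 0.822 and 0.179 RPKM on day 3 and 33.6, 17.9 and 52.0 on day 6. The lowest day 6 library was thus far above the highest of day 3, the ratio of the mean RPKM was 66.7, and the log2 difference was 4.45 (95% interval 3.54 to 5.36). It was also the only gene called without day 6 replicate 2 (log2 difference 4.84, limma adjusted p 0.0386). Its day 3 mean was under the limit of 2 RPKM, so it was tested through its day 6 values only, which fixed its direction.

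Fitting all 18 libraries together called 16 genes as higher on day 6 (0.166%) and none as lower (0%), with 374 higher and 141 lower at an unadjusted p under 0.05. These were Ceacam15, Rbp4, Ttc39a, Rasl12, Extl1, Efnb2, Scn4b, Tcf7, Tmem150c, Tlr12, Ndrg4, Cx3cl1, Nrep, Aoc1, Srms and Septin4. Of the 16, 13 met the limit on mean RPKM through day 6 only and so had to differ in that direction, against 275 of all genes tested. With median centring 14 of the 16 were called and Cx3cl1 and Srms were not, with a pseudocount of 0.1 only Ceacam15 was called, and the 12 culture libraries gave 0 calls. In the fit of 18 libraries the spread is shared with groups in which most of these genes were low. In DKI on day 6, however, Ceacam15 reached 10.1 and Cx3cl1 3.29 RPKM. The highest day 0 WT level of any of the 16 was 1.93 RPKM (Efnb2). The residual SD of Septin4 was 0.886 over the 6 libraries but 0.522 over the 18, and that of Ceacam15 was 0.573 and 0.599. Most of the 16 were low also on day 6. Cx3cl1, the membrane-bound chemokine for CX3CR1, was at 5.91, 8.46 and 3.02 RPKM on day 3 and 28.7, 15.4 and 36.3 on day 6 (log2 difference 2.04, 95% interval 1.06 to 3.01), and these ranges did not overlap. Tcf7, a transcription factor of the WNT pathway, was at 1.18, 2.10 and 0.445 RPKM on day 3 and 7.89, 3.90 and 6.98 on day 6. Srms, a SRC-like tyrosine kinase, was at 0.590, 0.490 and 0.183 RPKM on day 3 and 3.75, 1.62 and 9.26 on day 6. Tlr12, an endosomal receptor for profilin, was at 0.241, 0.360 and 0.206 RPKM on day 3 and 2.77, 1.49 and 3.92 on day 6. In each of these genes replicate 2 had the lowest day 6 level.

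Promoters of 3 genes are shown, that of Ceacam15 as the leading gene, that of Srms as the only 1 of 15 matched promoters of the 16 genes with the STAT5-type letters TTCNNNGAA, and that of Cxcl2, a lower gene described below, as a promoter with 2 matches to the NF-kappaB-type letters GGNNTTTCC. Each runs from 250 bases before to 50 after the RefSeq start (GRCm38.p6), 5′ to 3′ on the gene's strand, with matches in capitals.
Ceacam15, chr7:16675656-16675955, minus strand: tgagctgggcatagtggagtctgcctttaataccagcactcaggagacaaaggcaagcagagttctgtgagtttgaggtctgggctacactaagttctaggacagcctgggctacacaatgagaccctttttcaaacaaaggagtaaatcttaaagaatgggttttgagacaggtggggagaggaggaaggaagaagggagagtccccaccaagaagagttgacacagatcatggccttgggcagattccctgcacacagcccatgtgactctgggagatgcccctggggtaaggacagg
Srms, chr2:181213122-181213421, minus strand: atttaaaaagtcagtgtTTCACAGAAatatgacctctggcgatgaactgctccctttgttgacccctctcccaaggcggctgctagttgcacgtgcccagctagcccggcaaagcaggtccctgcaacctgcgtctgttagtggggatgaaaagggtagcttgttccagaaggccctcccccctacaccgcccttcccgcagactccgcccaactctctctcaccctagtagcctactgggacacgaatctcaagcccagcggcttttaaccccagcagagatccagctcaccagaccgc
Cxcl2, chr5:90903649-90903948, plus strand: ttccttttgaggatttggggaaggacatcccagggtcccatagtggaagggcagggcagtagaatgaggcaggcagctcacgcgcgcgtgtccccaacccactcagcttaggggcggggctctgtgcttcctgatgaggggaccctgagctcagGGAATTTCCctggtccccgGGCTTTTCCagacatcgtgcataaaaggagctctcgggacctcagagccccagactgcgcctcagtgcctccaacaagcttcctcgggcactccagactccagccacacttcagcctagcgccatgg
Both strands were searched. TTCNNNGAA was held by 8.37% of all 27025 promoters of this length and by 8 of 185 matched promoters of the 239 higher genes (4.32%), and by 1 of 33 matched promoters of the 45 lower genes (3.03%). GGNNTTTCC was held by 5.77% of all promoters, by 8 of those 185 (4.32%) and by 4 of those 33 (12.1%). The AP-1 letters TGANTCA were held by 7.91% of all promoters, by 9 of the 185 (4.86%) and by 4 of the 33 (12.1%). The PU.1-type letters GAGGAAGT were held by 3.29% of all promoters, by 4 of the 185 (2.16%) and by 3 of the 33 (9.09%). These are counts of letters and not of bound sites.

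Other genes with separated days included chemokines, a collagenase and a growth factor. Ccl5, a chemokine for T cells and monocytes, was at 102, 281 and 51.3 RPKM on day 3 and 1019.9, 1206 and 2285 on day 6 (log2 difference 3.62, 95% interval 2.10 to 5.13). It was at 2.01 to 3.38 RPKM on day 0 and so was higher at each later time. Mmp13, a collagenase, was at 7.19, 7.71 and 6.72 RPKM on day 3 and 61.6, 29.4 and 26.7 on day 6, with a close spread on day 3. Igf1, a growth factor of tissue macrophages, was at 0.377, 1.31 and 0.267 RPKM on day 3 and 2.23, 3.79 and 3.65 on day 6, and it met the limit on mean RPKM through day 6 only. Mx1, an interferon-induced GTPase, was at 8.28, 11.5 and 6.54 RPKM on day 3 and 20.3, 19.2 and 32.3 on day 6, yet the 23 tested interferon-stimulated genes had a median log2 difference of -0.30, with 5, 21 and 5 higher on day 6 in replicates 1, 2 and 3. Of these 23, Mx1 and Bst2 (8.7%, against 6.09% of all genes) were separated and higher and none (against 8.25%) lower. The limit on mean RPKM was met through day 3 only by 3 of the 23, and the median of the other 20 was -0.26. Isg15 was at 19.3, 4.57 and 20.1 RPKM on day 3 and 6.99, 4.87 and 5.02 on day 6. Cxcr4, a receptor that retains cells in marrow, was at 10.6, 26.2 and 15.5 RPKM on day 3 and 35.6, 32.8 and 55.3 on day 6, below its day 0 levels of 266 to 431.

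Cpa3, a mast cell protease, was at 4.29, 4.52 and 0.535 RPKM on day 3 and 88.3, 11.3 and 14.6 on day 6. The 12 mast cell and basophil genes summed to 46.8, 56.9 and 40.7 RPKM on day 3 and to 151.7, 46.2 and 48.5 on day 6, with 3 or 4 of them at 0 in each library, so that the sum was raised in replicate 1 of day 6, mainly by Cpa3. In that library the histamine enzyme Hdc was at 11.0 RPKM, against 3.41 to 8.32 on day 3. The mast cell and basophil factor Gata2 was at 28.6, 24.7 and 30.4 RPKM on day 3 and 29.9, 22.6 and 21.7 on day 6, and the basophil protease Prss34 at 0.793, 6.80 and 0.205 on day 3 and 0.541, 1.17 and 0.0272 on day 6. The 6 tested genes of the list had a median of -0.06, and 5, 2 and 3 of them were higher on day 6 in replicates 1, 2 and 3. The part of such cells in the result was not tested. In bulk RNA fewer cells of a type cannot be told apart from less RNA per cell.

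Of the genes with separated days and a change above 1.5-fold, fewer were lower (45) than higher (239). Cxcl2, a neutrophil chemokine, was at 8.72, 9.25 and 5.71 RPKM on day 3 and 3.96, 2.52 and 1.59 on day 6 (log2 difference -1.30, 95% interval -1.97 to -0.62), after 55.4 to 139.9 RPKM on day 0. Plet1, a surface protein of epithelial progenitors and some dendritic cells, was at 885, 1135 and 1337 RPKM on day 3 and 597, 769 and 455 on day 6 (log2 difference -0.89, 95% interval -1.52 to -0.27). Its day 0 level was at most 0.412 RPKM, so the day 6 level remained far above that of monocytes. Lrrc1, a cell polarity scaffold, was at 6.93, 10.4 and 9.95 RPKM on day 3 and 2.49, 3.66 and 5.01 on day 6. Kmo, of the kynurenine pathway, was at 149, 82.3 and 102 RPKM on day 3 and 80.3, 68.7 and 53.1 on day 6. In 32 of the 45 lower genes the day 0 mean was below both later days, as in Plet1, Lrrc1 and Kmo, again without a count over all genes tested.

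**Figure D2:**
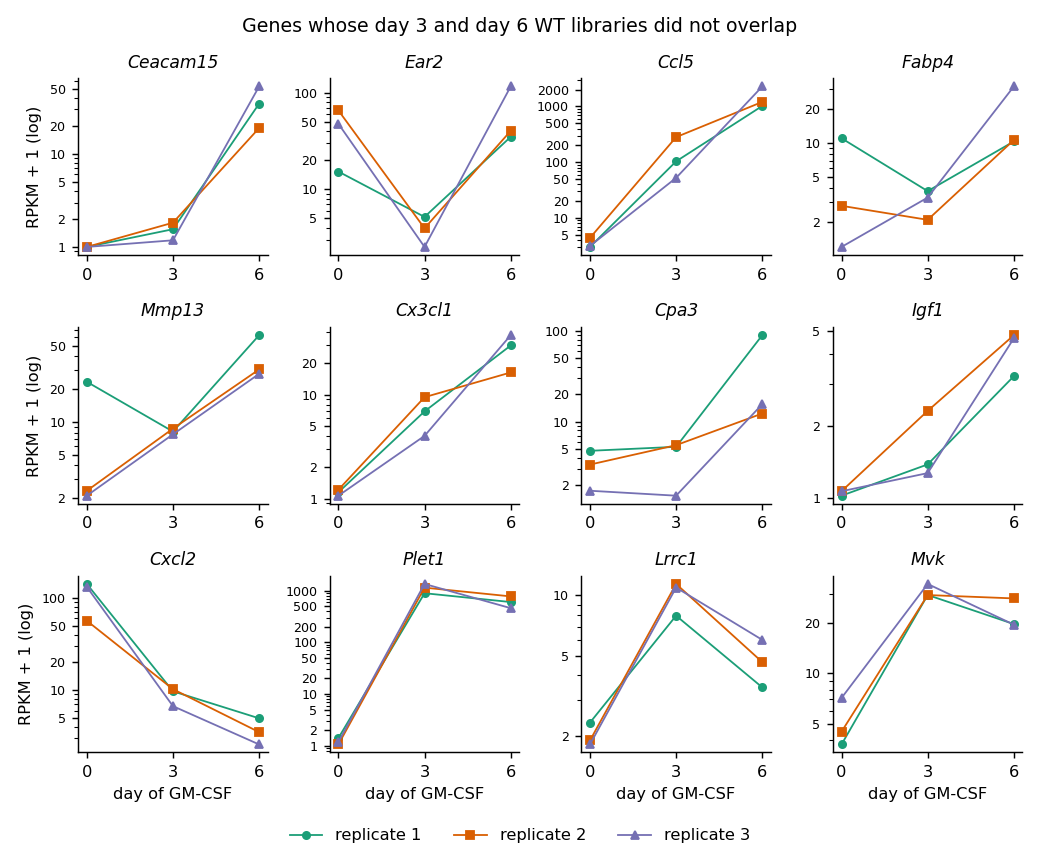
RPKM + 1 (log axis) against day of GM-CSF for 12 genes whose day 3 and day 6 WT libraries did not overlap, with lines joining libraries of the same number. Ceacam15 was near 0 until day 3, Ear2 and Fabp4 dipped on day 3 in at least 1 replicate, and Plet1, Lrrc1 and Mvk were highest on day 3.

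The genes of mature, migratory dendritic cells were mostly higher on day 6 in replicates 1 and 3 and lower in replicate 2. Of 20 tested, 3 (15%, against 6.09% of all genes) had all day 6 libraries above day 3 and none below, none was called, and the median log2 difference was 0.73 against -0.03 for all genes. Ccr7 was at 118, 229 and 60.8 RPKM on day 3 and 456, 296 and 824 on day 6 (log2 difference 2.02, 95% interval 0.68 to 3.35, limma adjusted p 0.632). Tnfrsf9, the co-stimulatory receptor 4-1BB, was at 177, 227 and 87.6 RPKM on day 3 and 543, 239 and 621 on day 6. In both genes replicate 2 was the highest of day 3 and the lowest of day 6. The third separated gene, Zmynd15, was at 1.07 to 1.66 RPKM on day 3 and 2.00 to 7.38 on day 6. It and Il4i1 met the limit on mean RPKM through day 6 only, which fixed their direction. Of the 18 members that met it on both days, 2 were separated and the median was 0.73. Fscn1, which bundles actin in dendrites, was at 106, 271 and 26.7 RPKM on day 3 and 368, 173 and 377 on day 6, and Ccl22, a chemokine for CCR4, was at 657, 2781 and 412 RPKM on day 3 and 1934, 1392 and 2924 on day 6. For these the days overlapped, with replicate 2 lower on day 6 and replicates 1 and 3 higher. Ccl17, the other CCR4 ligand, was at 3473, 5758 and 5499.9 RPKM on day 3 and 3607, 1871 and 6080.0 on day 6.

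Between same-numbered libraries, 19 of these 20 genes were higher on day 6 in replicate 1, 5 in replicate 2 and 19 in replicate 3, with median log2 differences of 1.08, -0.40 and 1.91. The list's median was 1.38 without replicate 2, 0.56 without replicate 1 and 0.29 without replicate 3. The subunits and feedback genes of NF-kappaB, a factor active in maturing dendritic cells, were split likewise, with 15, 0 and 16 of 17 higher on day 6 and medians of 0.41, -0.47 and 0.81. Relb, which forms the noncanonical dimer, was at 35.7, 49.2 and 22.7 RPKM on day 3 and 80.6, 32.6 and 70.7 on day 6. Genes of lipid synthesis had the opposite split, as given below.

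Co-stimulatory ligands were uneven. Of 13 tested, 3 (23.1%, against 6.09% of all genes) were separated and higher, none lower, and the median was 0.33. In replicates 1, 2 and 3, 9, 5 and 11 of them were higher on day 6 (medians 0.37, -0.23 and 0.79). Cd70 met the limit on mean RPKM through day 6 only, and the median of the other 12 was 0.23. Cd86, which engages CD28, was at 67.2, 81.7 and 38.5 RPKM on day 3 and 131, 93.9 and 183 on day 6 (log2 difference 1.12, 95% interval 0.29 to 1.95, limma adjusted p 0.632), whereas Cd80, which engages the same receptor, was at 57.9, 96.2 and 60.8 RPKM on day 3 and 55.4, 57.3 and 101 on day 6 (log2 difference -0.02, 95% interval -0.74 to 0.70). Cd86 was thus higher in each day 6 library and Cd80 overlapped. Il15, a cytokine that sustains T and NK cells, was at 4.19, 3.99 and 2.90 RPKM on day 3 and 6.81, 6.23 and 8.79 on day 6, and Icosl was the third separated ligand, at 11.6 to 14.0 RPKM on day 3 and 14.3 to 18.4 on day 6. Cd83, a maturation marker, was at 48.8, 129.5 and 44.3 RPKM on day 3 and 158, 110.3 and 281 on day 6.

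**Figure D3:**
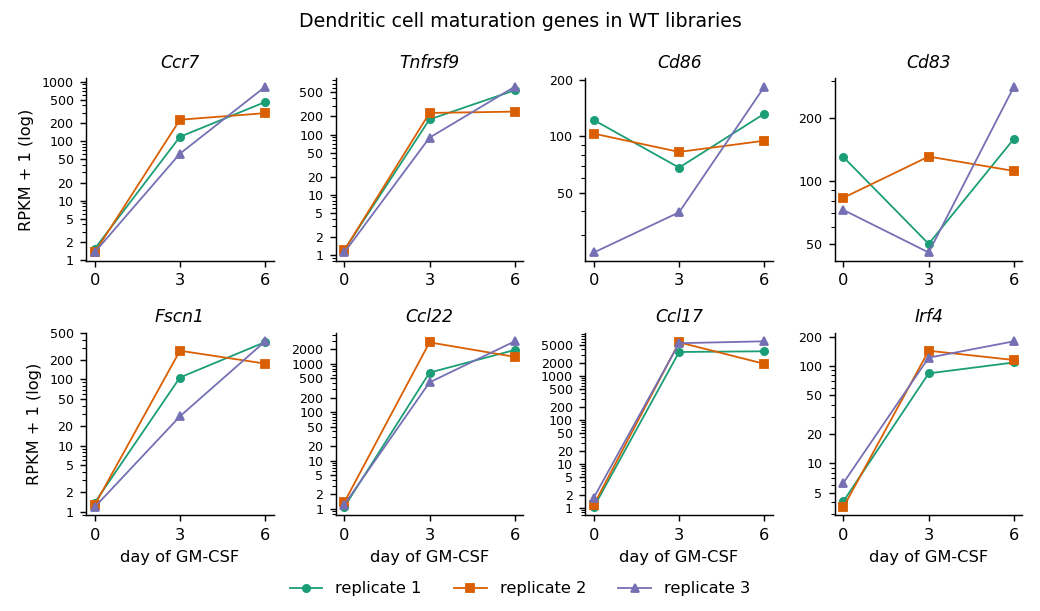
RPKM + 1 (log axis) against day of GM-CSF for 8 maturation genes in WT libraries, with lines joining libraries of the same number. Replicate 2 lies above the others on day 3 for Ccr7, Tnfrsf9 and Fscn1 and below them on day 6.

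MHC class II genes, which present antigen to CD4+ T cells, were at similar levels on both days. Of 15 tested MHC class II genes, 1 (6.67%, against 8.25% of all genes), the peptide exchange gene H2-DMb1, was separated and lower and none higher, and the median was -0.01. Cd74, the invariant chain, went from 55.0 to 92.5 RPKM on day 0 to 18810.3, 11359.8 and 15148 on day 3 and was at 20447, 10378 and 12840.0 on day 6. H2-Ab1, an MHC class II beta chain, was at 6963, 4088 and 5428 RPKM on day 3 and 7086, 4196 and 3759 on day 6 (log2 difference -0.16, 95% interval -0.99 to 0.68). H2-Oa, whose protein restrains peptide loading, was at 27.1, 11.2 and 27.6 RPKM on day 3 and 60.5, 26.7 and 69.6 on day 6, higher in each same-numbered pair though the days overlapped. Among 24 dendritic cell lineage genes, 2 (8.33%, against 6.09% of all genes) were separated and higher, Cx3cl1 and Spib, and 1 (4.17%, against 8.25%) lower, Kmo. Spib and Flt3 met the limit on mean RPKM through day 6 only, and of the other 22 genes 1 was separated in each direction. Spib, an ETS factor of B cells and plasmacytoid dendritic cells, was at 1.57, 0.830 and 0.792 RPKM on day 3 and 12.02, 1.75 and 8.28 on day 6. The 10 B cell genes summed to 11.0 to 20.9 RPKM on day 3 and 12.2 to 19.3 on day 6, and the 8 plasmacytoid dendritic cell genes to 15.8 to 20.1 and 14.4 to 40.6 RPKM. Irf4, which directs moDC formation, was at 82.8, 142 and 120.4 RPKM on day 3 and 107, 114 and 178 on day 6, and the moDC lectin Mgl2 was at 1769, 684 and 1450.1 RPKM on day 3 and 1109, 528 and 836 on day 6.

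Of the tested genes that GM-CSF and PPARG sustain in alveolar macrophages, the lung cells that clear surfactant, most were higher in each replicate. The summed RPKM of the 22 genes in the list did not follow. It was 1305, 2918 and 2949 on day 3 and 1212, 2844 and 3194 on day 6, lower in replicates 1 and 2. Of 16 tested, 4 (25%, against 6.09% of all genes) were separated and higher and 1 (6.25%, against 8.25%), Plet1, lower. Ear6 and Marco met the limit on mean RPKM through day 6 only. The median log2 difference was 0.88, or 0.79 over the other 14, 13, 13 and 11 were higher on day 6 in replicates 1, 2 and 3, and leaving out a replicate number moved the median only between 0.77 and 0.85. Ear2, an eosinophil-type ribonuclease, was at 4.16, 2.93 and 1.52 RPKM on day 3 and 33.8, 39.2 and 115 on day 6 (log2 difference 3.88, 95% interval 2.69 to 5.07, limma adjusted p 0.488), after 14.2, 64.5 and 46.6 on day 0. Reads of Ear2 and of near copies such as Ear6 may have been exchanged. Fabp4, a fatty acid carrier and PPARG target, was at 2.74, 1.08 and 2.28 RPKM on day 3 and 9.35, 9.65 and 30.9 on day 6, and Fabp5 at 13.2 to 16.4 on day 3 and 32.9, 17.6 and 73.6 on day 6. Slc7a2, an arginine transporter, was at 11.1, 21.4 and 12.5 RPKM on day 3 and 35.9, 28.7 and 24.2 on day 6. Pparg itself was at 1.94, 3.00 and 2.74 RPKM on day 3 and 3.67, 4.12 and 2.10 on day 6, which overlapped. The 8 eosinophil genes, of which Ear6 and Siglecf are also in the alveolar list, summed to 24.5, 49.3 and 28.0 RPKM on day 3 and 62.4, 41.8 and 47.7 on day 6, with at most 1 at 0 in a library. The 4 tested had a median of 0.67, and 3 of them were higher in all 3 pairs. Prg2, the eosinophil granule major basic protein, was at 1.52, 20.4 and 0.705 RPKM on day 3 and 22.4, 2.83 and 0.946 on day 6. The part of eosinophils in the alveolar list was not tested.

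General macrophage genes depended on the replicate. None of 24 tested was separated in either direction, against 6.09% higher and 8.25% lower of all genes, the median was 0.41, and 18, 20 and 5 were higher on day 6 in replicates 1, 2 and 3 (medians 0.44, 0.90 and -0.66). The list's median was -0.12 without replicate 2, 0.17 without replicate 1 and 0.89 without replicate 3. C1qa, a complement component, was at 187, 5.43 and 37.2 RPKM on day 3 and 832, 13.8 and 17.9 on day 6, and replicate 1 was the highest on both days. Mrc1, the mannose receptor, was at 48.2, 4.47 and 13.3 RPKM on day 3 and 60.8, 30.5 and 29.9 on day 6. Adgre1, which encodes F4/80, was at 294, 165 and 360.5 RPKM on day 3 and 349, 293 and 205 on day 6.

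Respiratory chain subunits had small but regular differences towards lower levels. Of 24 tested, 13 (54.2%) had all day 6 libraries below all day 3 libraries, against 8.25% of all genes, none was higher, and none was called (smallest limma adjusted p 0.632). The median was -0.25, and 22, 20 and 20 were lower on day 6 in replicates 1, 2 and 3. Ndufv1, of complex I, was at 58.1, 58.9 and 58.1 RPKM on day 3 and 47.6, 47.5 and 45.3 on day 6 (log2 difference -0.31, 95% interval -0.55 to -0.08). Uqcrc1, of complex III, was at 104, 108 and 111 RPKM on day 3 and 85.2, 87.3 and 89.4 on day 6, and Atp5b, of the ATP synthase, was at 509, 561 and 613 on day 3 and 423, 465 and 465 on day 6. The replicates of each day lay close together in these genes, so that these modest differences were separated. Cox4i1, of complex IV, was at 525, 451 and 545 RPKM on day 3 and 561, 466 and 545 on day 6.

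Ribosome biogenesis and MYC pathway genes were similar, with 10 of 28 (35.7%, against 8.25% of all genes) separated and lower, 2 (7.14%, against 6.09%) higher and a median of -0.19. In replicates 1, 2 and 3, 26, 23 and 19 were lower on day 6. Fbl, which methylates ribosomal RNA, was at 11.5, 15.98 and 18.1 RPKM on day 3 and 7.45, 10.2 and 10.7 on day 6 (log2 difference -0.62, 95% interval -1.11 to -0.13, limma adjusted p 0.632), and Nop2, a nucleolar RNA methyltransferase, was at 27.3, 25.7 and 21.6 on day 3 and 19.1, 20.0 and 14.5 on day 6. The 2 higher genes, Mxd1 and Mxi1, encode MAX partners that oppose MYC. Mxd1 was at 11.3, 18.5 and 11.8 RPKM on day 3 and 24.5, 23.6 and 30.0 on day 6, whereas Max was among the lower genes and Myc was at 26.1, 17.0 and 17.0 on day 3 and 21.0, 20.5 and 12.2 on day 6. Proteins of the ribosome itself had a median of 0.19 over 30 genes, with 22, 14 and 27 higher on day 6 in replicates 1, 2 and 3 (medians 0.09, -0.01 and 0.44).

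All 22 tested cholesterol synthesis and uptake genes had a negative log2 difference, with a median of -0.36, and 1 (4.55%, against 8.25% of all genes), Mvk, was separated. The number higher on day 6 was 0, 20 and 1 in replicates 1, 2 and 3, with medians of -0.61, 0.32 and -0.79, and the list's median was -0.69 without replicate 2, -0.20 without replicate 1 and -0.16 without replicate 3. Hmgcs1, an early enzyme of the pathway, was at 95.7, 113 and 120.3 RPKM on day 3 and 56.2, 166 and 71.0 on day 6. Mvk, mevalonate kinase, was at 28.5, 28.4 and 33.3 RPKM on day 3 and 18.7, 27.1 and 18.6 on day 6 (log2 difference -0.48, 95% interval -0.90 to -0.07). Fatty acid synthesis genes were split in the same way, with 0, 11 and 1 of 12 higher on day 6 and medians of -0.57, 0.64 and -0.54.

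**Figure D4:**
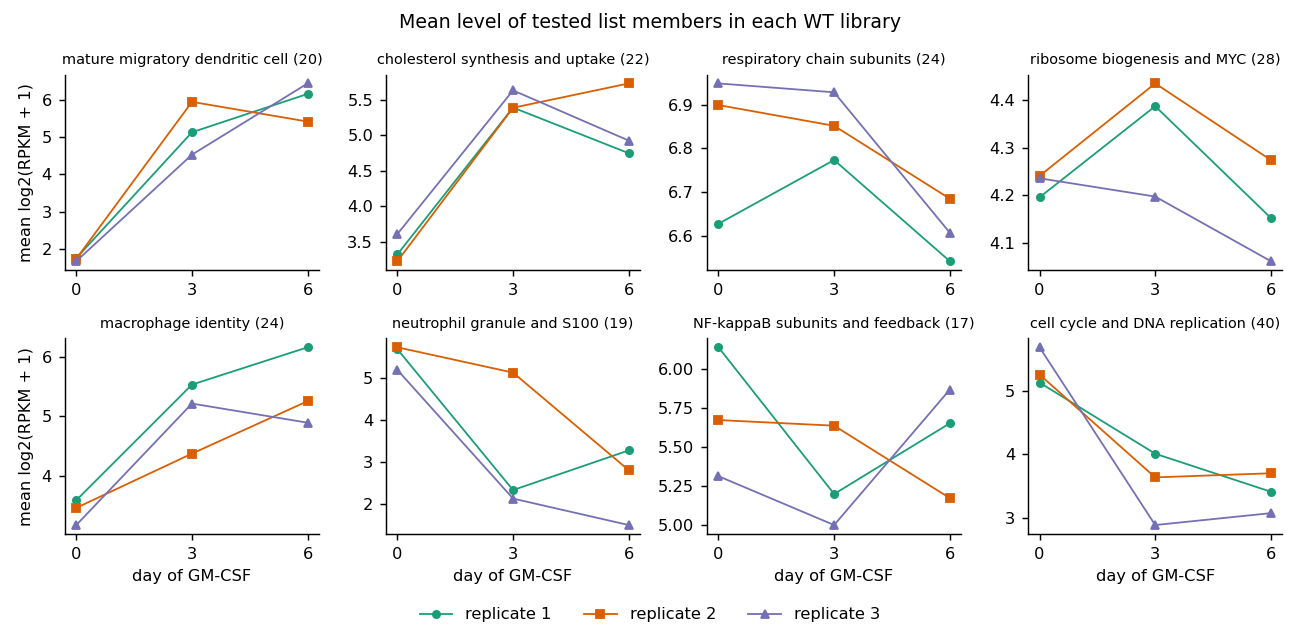
Mean log2(RPKM + 1) over the tested members of 8 gene lists (number in brackets) in each WT library, against day of GM-CSF, with lines joining libraries of the same number. Respiratory chain and ribosome biogenesis levels were lower on day 6 in all 3 replicates, whereas replicate 2 went the other way for the mature dendritic cell, NF-kappaB and cholesterol lists.

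Neutrophil genes varied more by library than by day, and classical monocyte genes were split between directions. Of 21 monocyte genes tested, 1 (4.76%, against 6.09% of all genes) was separated and higher and none (against 8.25%) lower. Their median was -0.24, and 13, 10 and 8 were higher on day 6 in replicates 1, 2 and 3. The 21 neutrophil granule and S100 genes summed to 302, 4959 and 599 RPKM on day 3 and 738, 1129 and 148 on day 6, and the median of the 19 tested was -0.77, with 0.34 without replicate 2. Of the 19, 6 met the limit on mean RPKM through day 3 only and 1 through day 6 only, and the median of the other 12 was -0.70. S100a8, a calcium-binding protein abundant in neutrophils and monocytes, was at 81.9, 2192 and 153 RPKM on day 3 and 217, 361 and 12.6 on day 6, and Ngp, a neutrophil granule protein, was at 20.8, 335 and 3.19 on day 3 and 115, 6.96 and 1.82 on day 6. Day 3 replicate 2 thus held far more of these transcripts than the other 5 libraries, and it was also the day 3 library with the highest Ccr7, Fscn1 and Ccl22. The part of remaining neutrophils in these results was not tested. Ccr2, the monocyte recruitment receptor, was at 180.5, 83.0 and 217 RPKM on day 3 and 155, 73.9 and 137 on day 6, lower in each pair but overlapping.

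The GM-CSF pathway was near level across the interval. Of 21 tested genes, 1 was separated in each direction (4.76% each, against 6.09% higher and 8.25% lower of all genes) and the median was -0.06. Csf2ra was at 224, 186 and 199 RPKM on day 3 and 213, 192 and 119 on day 6, and Csf2rb at 575, 721 and 725 on day 3 and 579, 643 and 533 on day 6, where reads shared with its near copy Csf2rb2 make the level uncertain. Stat5a was at 30.2, 58.0 and 39.7 RPKM on day 3 and 35.2, 27.2 and 62.4 on day 6, with a log2 difference of -0.07 (95% interval -0.92 to 0.78). Cish, a direct STAT5 target that feeds back on the receptor, was at 200.1, 177 and 175 RPKM on day 3 and 189, 151 and 186 on day 6. Il4ra, of the IL-4 receptor, was the separated higher gene, at 55.8 to 66.5 RPKM on day 3 and 70.0 to 102 on day 6, and Csf3r, the G-CSF receptor of neutrophils, the lower one, at 1.85 to 4.67 and 0.335 to 1.84 RPKM. Csf3r met the limit on mean RPKM through day 3 only. Cell cycle genes, which were high on day 0, had a median of -0.13 with none of 40 separated (against 6.09% higher and 8.25% lower of all genes), and 0, 27 and 33 of them were higher on day 6 in replicates 1, 2 and 3. Mki67, a marker of dividing cells, was at 19.5, 21.3 and 7.90 RPKM on day 3 and 11.2, 25.2 and 11.6 on day 6.

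**Figure D5:**
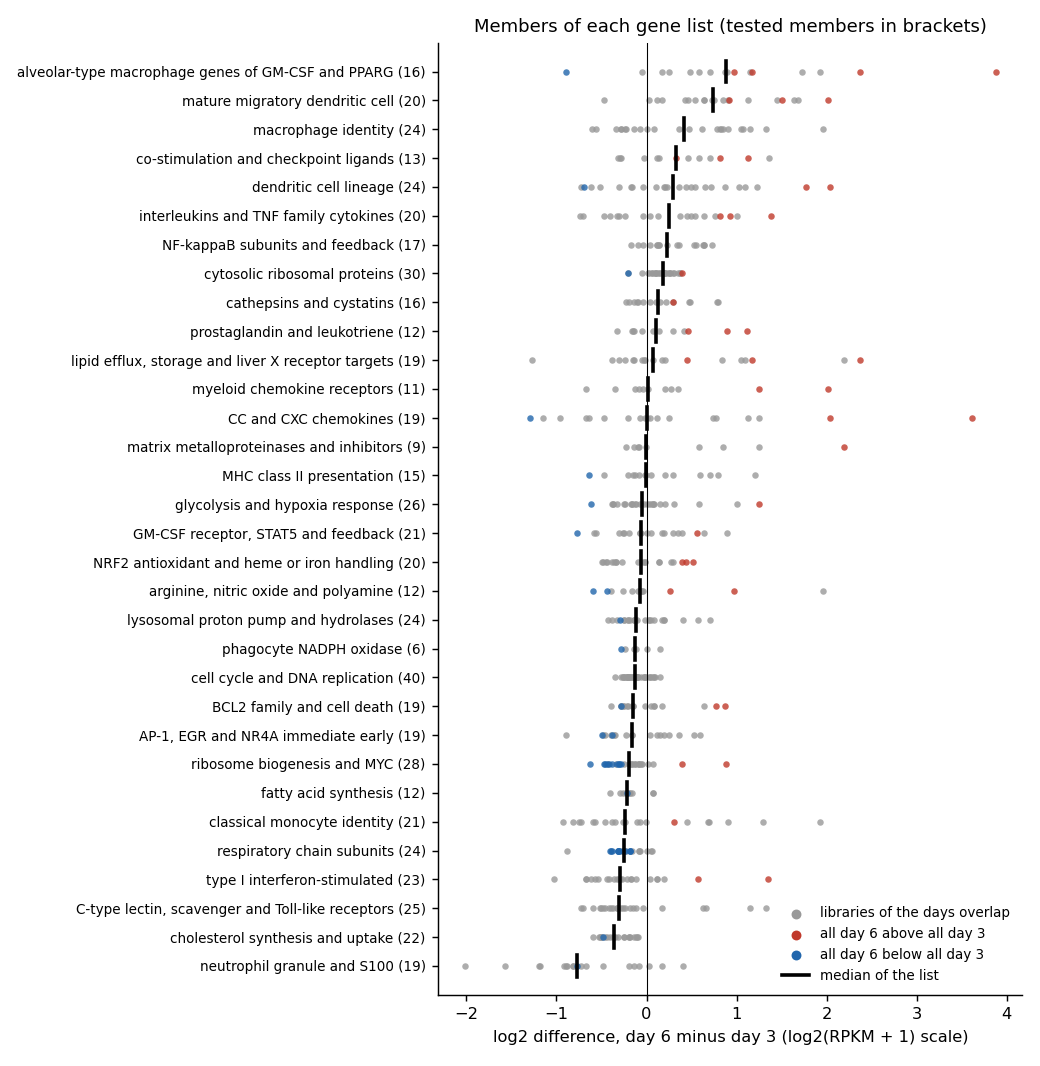
Log2 difference (day 6 minus day 3) of each tested member of 32 gene lists, with the list median as a bar. Red and blue points had all day 6 libraries above or below all day 3 libraries, and blue points gather in the respiratory chain and ribosome biogenesis lists.

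The same interval in DKI cultures was compared through the interaction of day and genotype. No gene of 9985 passed (0%), with 89 at an unadjusted p under 0.05 in limma, of which 6 had a larger and 83 a smaller log2 difference in DKI. The days of DKI alone gave 93 of 9540 genes at that limit in limma. Both counts are below what p-values without any difference would give. The lack of calls therefore cannot show that the genotypes were alike, and nothing is read from the 6 and 83. Of the 239 genes higher in WT, 189 (79.1%) had a higher mean on day 6 also in DKI, as had 35.6% of all genes tested. Their mean was lower in DKI than in WT for 133 (55.6%) on day 3 and 179 (74.9%) on day 6, against 63.1% and 67.6% of all genes tested. The day 6 count follows in part from the choice of genes with high WT values on that day. Ceacam15 was at 0.0914, 0.237 and 0.0231 RPKM on day 3 and 3.13, 1.09 and 10.1 on day 6 in DKI, higher in each pair and at a lower level than in WT. Mmp13, in contrast, was at 52.1 to 1377 RPKM on day 3 and 606 to 1257 on day 6 in DKI, above all WT libraries on day 6. Of the 45 genes lower in WT, 8 (17.8%) had a higher mean on day 6 in DKI, against 35.6% of all genes tested. For 36 of the 45 (80%) the day 3 mean was lower in DKI than in WT, and for 34 (75.6%) the day 6 mean. The shares of all genes tested were 63.1% and 67.6%. The day 3 count follows in part from the choice of genes with high WT values on that day.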

How the data were processed

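RNA-seq was analysed from 18 libraries in 6 groups of 3. The authors mapped the single-end reads with Subread (mm10), assigned them to RefSeq genes with featureCounts and deposited RPKM values, 1 column per library. Versions and strandedness were not given in the sources used here, so near copies and overlapping genes are uncertain. Of the identifiers, 20082 matched the RefSeq table and 216 did not. RPKM holds no read totals, so depth is an approximation, from what 1 read is worth in the lowest values of 1378 receptor genes.

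The values were taken as log2(RPKM + 1), which understates the change of low genes. Genes with a mean RPKM above 2 in either group were fitted with limma 3.58.1 (eBayes with intensity trend, two-sided) in R 4.3.3 on the 6 libraries, and called where the fold change was above 1.5 with an adjusted p (Benjamini-Hochberg) under 0.05. The genotype difference was fitted on 12 libraries. Fits were tested on simulated data. Figures used Python 3.11.15 and matplotlib 3.10.9. Promoters came from a RefSeq table of GRCm38.p6.

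The replicate numbers come from the sample titles. Deviations from the group means correlated between same-numbered day 3 and day 6 libraries at 0.680, 0.287 and 0.125, and between different numbers at -0.427 to 0.145. Each same-numbered value was above 0.1, the limit for treating the numbers as pairs. Day 3 replicate 3 with day 6 replicate 2 (0.145) and day 3 replicate 2 with day 6 replicate 3 (0.106) also passed it. Passing this limit therefore cannot show by itself that the numbers are pairs. The library names in the sample descriptions carry an earlier year for replicate 1 of days 3 and 6 than for the other libraries, and calls were recomputed without it.

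The named genes rule took up to 12 called genes in each direction, which gave none. In each of 42 gene lists it took the called members or, where none was called, the 3 with the highest mean RPKM and the 2 with the largest change, and it added a fixed set of markers. The 16 genes of the fit on 18 libraries and up to 12 genes in each direction with the largest change among those without overlap were added after their values were seen, which made 204 genes. The other genes named were also chosen after their values were seen. The members and lists were chosen with earlier results of these data known. Of 828 list entries, 800 matched, and the others were not analysed here. A few single genes are not reported here.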

Additional observations from a re-analysis of the deposited data

How the results depend on the processing

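Counts of called genes in the WT comparison were 0 in each direction with the replicate block, a pseudocount of 0.1, no filter on low values, a mean RPKM above 5, median centring, quantile normalisation and the 12 culture libraries, and with the block combined with 3 of these. The block, which follows the pairing of libraries by number, therefore changed no call. The genotype difference gave 0 genes in each alternative run. With 18 libraries 16 genes were higher. In alternatives chosen after seeing the data, 18 libraries with median centring gave 16, of which 14 were shared, and 18 libraries with a pseudocount of 0.1 gave 1, Ceacam15. Leaving out each library or replicate number in turn gave 0 to 1 higher and 0 to 0 lower genes, and 0 to 0 for the genotype difference. The single call came without day 6 replicate 2, and a fit with 2 libraries in a group rests on few values. Of 204 named genes, 148 kept the sign of their log2 difference in each alternative in which they were tested, at most 22, and 56 did not. The median half-width of the 95% interval, 0.405, limits what 3 libraries per day can show, and depth adds to the error of genes near 0.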

Other observations

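Further gene groups of the WT cultures were described by the same counts. Of 12 prostaglandin and leukotriene genes, 3 (25%, against 6.09% of all genes tested) had all day 6 libraries above all day 3 libraries, and none was called. Ptger4, a receptor for prostaglandin E2, was at 18.8, 22.2 and 11.1 RPKM on day 3 and 40.4, 24.2 and 53.7 on day 6. Ltc4s, which makes leukotriene C4, was at 19.4, 46.6 and 28.2 RPKM on day 3 and 48.2, 72.5 and 49.9 on day 6, and Alox15, a lipoxygenase, was at 15.6 to 19.0 RPKM on day 3 and 22.2 to 28.1 on day 6. All 12 were higher on day 6 in replicate 2, against 6 in replicate 1 and 4 in replicate 3. Of 20 cytokine genes, 3 (15%, against 6.09% of all genes tested) were separated and higher and none lower, with a median of 0.25. In replicates 1, 2 and 3, 15, 8 and 10 were higher on day 6. The limit on mean RPKM was met through day 6 only by 3 of the 20, and the median of the other 17 was 0.04. Among the separated genes, Il18, which acts with IL-12 on T and NK cells, was at 6.94, 1.99 and 5.21 RPKM on day 3 and 10.03, 8.04 and 9.23 on day 6.

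In arginine metabolism, 2 of 12 genes (16.7%) were separated and higher, Slc7a2 and Oaz2, and 2 (16.7%) lower, Ass1 and Slc7a1, against 6.09% and 8.25% of all genes tested. Ass1, which makes argininosuccinate, was at 89.1, 104 and 118 RPKM on day 3 and 76.1, 69.6 and 59.7 on day 6 (log2 difference -0.59, 95% interval -0.97 to -0.21, limma adjusted p 0.632), whereas the transporter gene Slc7a2 was separated in the other direction. Il7r, the receptor chain for IL-7 that also made up most of the summed T and NK cell list, was at 45.5, 91.7 and 78.2 RPKM on day 3 and 108, 124 and 102 on day 6.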
